A study of Homo sapiens with 12 samples.

Results

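The 10 genes described here encode large molecular chaperones and the proteins that work with them, and they were followed through an experiment on the chromatin remodeller subunit ARID1A and the Ewing sarcoma fusion EWS-FLI1. The 10 genes were HSP90AA1 and HSP90AB1 (cytosolic HSP90), HSPH1, HSPA4 and HSPA4L (the HSP110 family), HSPD1 and HSPE1 (mitochondrial HSP60 and its partner HSP10), and the co-chaperones AHSA1, CHORDC1 and BAG3. They were taken by gene name from the 60645 names in each of the 12 count files, and each name was found once. They were selected on an earlier result in these libraries, the lower counts of heat-shock genes with EWS-FLI1. For that reason the comparisons of EWS-FLI1 with the empty vector are described and not tested, and those of the ARID1A states are tested. The tested comparisons reuse libraries of the comparisons behind the choice, so they are not fully independent of it: a gene that happened to be high in the libraries with the empty vector would have been favoured.

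All cells were HEK-293T, a human embryonic kidney line, with the ARID1A gene knocked out (named 12KO by the submitters). ARID1A belongs to the SWI/SNF (BAF) chromatin remodelling complex, and IDR1b is a segment of one of its intrinsically disordered regions. The 3 states were made by overexpression (O/E): an empty vector (no ARID1A), ARID1A WT, and ARID1A ΔIDR1b, which lacks that segment. Each state was combined with a second empty vector or with EWS-FLI1, which joins part of EWSR1 to the DNA-binding part of FLI1, so that 6 groups of 2 libraries were sequenced from polyA RNA. The protocol gives 2 µg of pcDNA-EWS-FLI1 plasmid and 48 h of further growth. It does not give the amount of empty vector, the promoters of the constructs, whether the knockout line is a single clone, or whether the repeats of a group were separate cultures, so p-values measure the spread between libraries, which may be technical.

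HSP90 is an ATP-driven dimer that holds late folding intermediates of kinases, nuclear receptors and other client proteins, and co-chaperones such as AHSA1 and CHORDC1 dock on it. HSP110 proteins are distant relatives of HSP70 that reload HSP70 with ATP and help to pull apart aggregates, and BAG3 also acts on that step while linking HSP70 to selective autophagy. HSP60 and HSP10 form the folding chamber of the mitochondrial matrix. Many of these genes are read at a basal rate in growing cells and are raised by heat-shock factor 1 (HSF1), which binds arrays of the 5-base unit nGAAn in alternating orientation.

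The libraries held from 11702251 to 14445379 counts. Levels are CPM, counts divided by a library size that was scaled with TMM (trimmed mean of M-values), and CPM per kilobase of annotated exon is used where 1 gene is set against another. All 10 genes passed the filter on low counts. ARID1A stood at 147.4 to 164.5 CPM in the 4 libraries without added ARID1A, so the knockout still gave counts of the gene, at 1843 to 2291 CPM in WT and at 2608 to 2878 CPM in ΔIDR1b. FLI1 had between 0 and 2 counts in the libraries with the empty vector. With EWS-FLI1 it reached 1830 and 1688 CPM without ARID1A, 3675 and 3462 in WT and 1888 and 1906 in ΔIDR1b, so the fusion was more abundant in WT than in either other state. Of 8 genes fixed as markers of this line, 7 had a mean above 1 CPM (summed level 910 to 1260 CPM, NEFM at 0.0122), against 4 of 5 fibroblast genes (87.3 to 135 CPM, COL1A1 at 87.4) and 0 of 3 hepatocyte genes (0.366 to 1.59 CPM, TTR at 0). These are bulk counts, in which a change in some cells and a smaller change in all cells cannot be told apart.

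The promoters of the genes were read from RefSeq (GRCh38.p14), in which all 10 had at least 1 window of 250 bases before a start, 17 windows in all. The motif GAANNTTCNNGAA, 3 alternating HSF1 units in a row, was searched on both strands. It was found in windows of 4 of the 10 genes (HSP90AA1, HSP90AB1, HSPD1 and CHORDC1) and in 155 of 35116 windows of all genes (0.441%), or 152 of 27305 genes (0.557%). The windows with the motif are shown because they are what these 4 genes share in sequence, and that of HSPH1 is shown beside them because its level differed most with EWS-FLI1 while its window holds no match. Capitals mark the matches, overlapping ones joined, and each sequence runs 5′ to 3′ towards the start. Bases that the annotation used for the counts, and not RefSeq, places in an exon are left off. For HSPD1 only the first 30 bases of the window are printed.
HSP90AA1, chr14:102087045-102087294, minus strand: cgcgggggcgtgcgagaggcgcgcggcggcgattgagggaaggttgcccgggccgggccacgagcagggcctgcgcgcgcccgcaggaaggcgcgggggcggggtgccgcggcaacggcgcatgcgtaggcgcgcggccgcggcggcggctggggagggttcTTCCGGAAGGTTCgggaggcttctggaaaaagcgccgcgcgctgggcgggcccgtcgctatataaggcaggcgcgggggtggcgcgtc
HSP90AB1, chr6:44247693-44247865, plus strand: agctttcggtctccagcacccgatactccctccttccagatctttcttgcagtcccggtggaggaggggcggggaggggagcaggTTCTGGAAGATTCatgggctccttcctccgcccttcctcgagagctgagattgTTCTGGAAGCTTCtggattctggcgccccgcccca
HSPD1, chr2:197500061-197500090, minus strand: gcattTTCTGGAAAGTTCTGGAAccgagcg
CHORDC1, chr11:90223078-90223299, minus strand: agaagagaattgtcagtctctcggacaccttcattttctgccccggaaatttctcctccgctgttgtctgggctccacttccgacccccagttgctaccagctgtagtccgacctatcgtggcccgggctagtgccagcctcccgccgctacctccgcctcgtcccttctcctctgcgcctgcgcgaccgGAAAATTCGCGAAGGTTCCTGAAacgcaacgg
HSPH1, chr13:31162389-31162638, minus strand: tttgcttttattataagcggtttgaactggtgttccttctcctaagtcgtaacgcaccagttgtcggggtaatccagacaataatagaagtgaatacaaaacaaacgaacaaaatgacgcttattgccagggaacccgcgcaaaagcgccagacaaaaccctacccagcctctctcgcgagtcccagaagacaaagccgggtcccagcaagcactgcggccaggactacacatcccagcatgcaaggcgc

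In HSP90AA1 the match starts 88 bases before the start in the downstream of its 2 windows. HSP90AB1 has 2 separate matches in the third of its 3 windows, the first of them 165 bases before the start. HSPD1 has 2 overlapping matches in 1 of 2 windows, 245 bases before the start, and CHORDC1 has 3 overlapping matches, the first 60 bases before the start. A pair of facing units, GAANNTTC or TTCNNGAA, which the longer motif contains, was found in windows of 5 of the 10 genes, HSPA4L being the fifth. Each taken alone, these pairs stood in windows of 7.05% and 8.12% of all genes (5.78% and 6.62% of all windows). The share of all genes with either pair was not counted. The ETS-type repeat GGAAGGAA, the kind of repeat that EWS-FLI1 binds, stood in 3.06% of all windows and in 0 of the 17. A match is a stretch of letters and not a measured binding site, and a window without one holds no such letters only within its 250 bases. This matters for HSPE1, whose only window ran from 197500129 to 197500378. The HSPD1 stretch printed above lies outside that window, yet upstream of the annotated start of HSPE1 at 197500140.

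The cytosolic HSP90 genes were by far the most abundant of the 10. Per kilobase of annotated exon, which counts the exons of all isoforms together and so lowers genes with long alternative exons, HSP90AB1 averaged 581.1 CPM and HSP90AA1 555.4 CPM over the 12 libraries. HSPD1 followed at 110.3 CPM per kilobase, AHSA1 at 59.78 and HSPA4 at 58.22. HSPE1 stood at 26.55, BAG3 at 24.17, HSPH1 at 20.19, CHORDC1 at 12.78 and HSPA4L at 7.594 CPM per kilobase. Multi-mapping fragments were not counted, so genes with pseudogene copies, such as HSPE1 and HSPD1, may stand too low. The co-chaperone CHORDC1 varied most, with a highest group mean 2.61 times its lowest, and 27.7% of all genes tested had a wider range. HSPH1 (1.87 times), HSPE1 (1.84), HSPA4L (1.65), HSPA4 (1.62) and HSP90AA1 (1.55) came next, and AHSA1 varied least (1.25 times, with 87.9% of all genes wider).

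**Figure D1:**
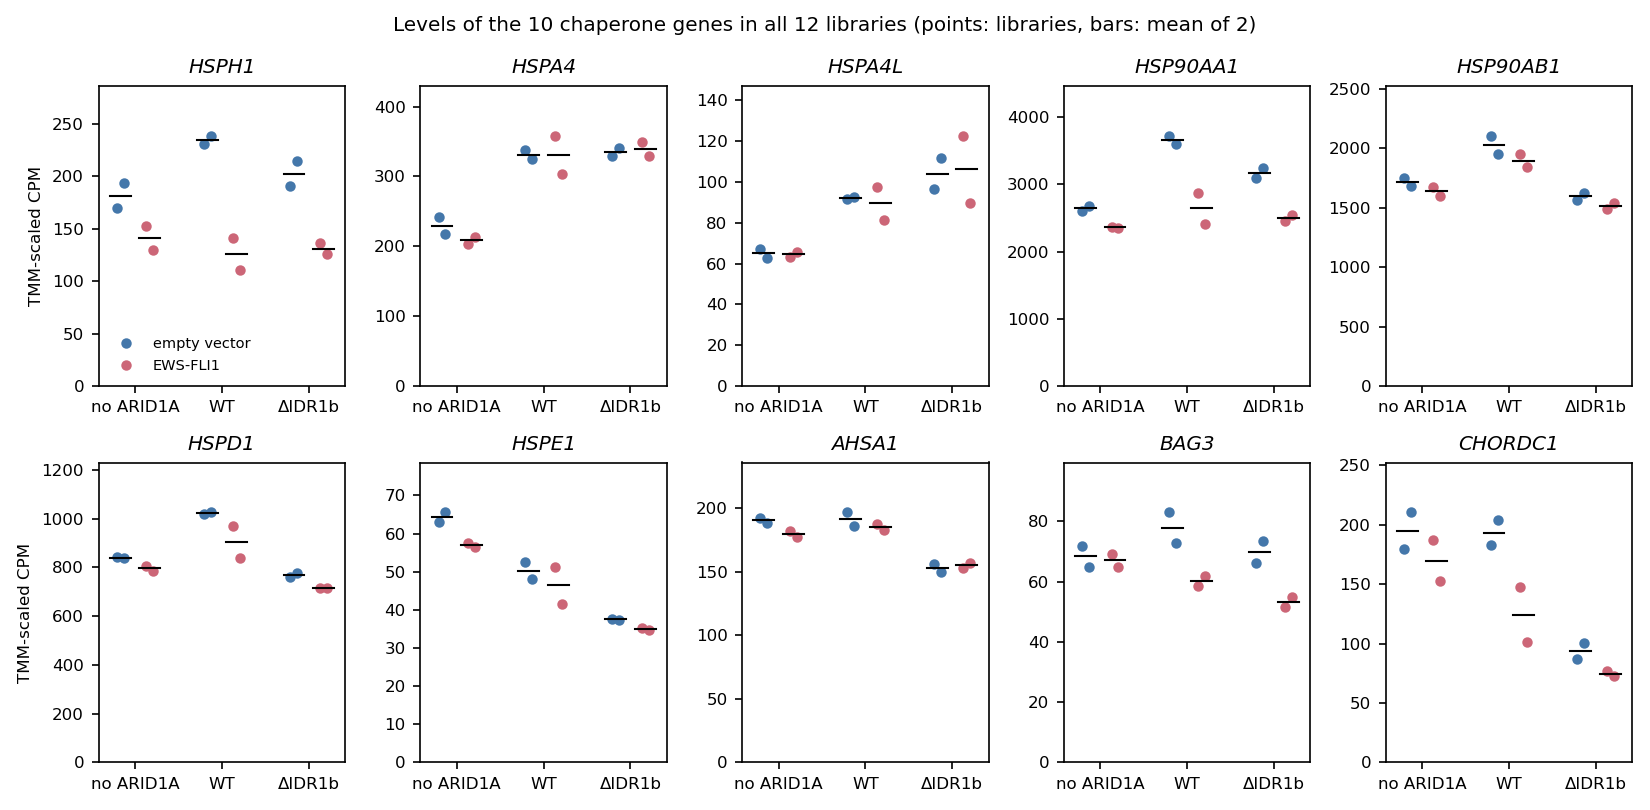
Levels of the 10 chaperone genes in TMM-scaled CPM (vertical axes, each from 0) in the 3 ARID1A states (horizontal axes), with 1 point per library, blue for the empty vector and red for EWS-FLI1, and a bar at the mean of 2. HSPH1 and HSP90AA1 are highest in WT with the empty vector, HSPA4 and HSPA4L lie lower in all 4 libraries without ARID1A, and CHORDC1, HSPE1 and HSPD1 are lowest in ΔIDR1b.

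With the empty vector, WT ARID1A raised 5 of the 10 genes over the knockout: HSPA4 and HSPA4L by 1.45 and 1.41 times, HSP90AA1 by 1.39 times, HSPH1 by 1.29 times and HSPD1 by 1.22 times. Over all 20377 genes tested 11.7% were called in this comparison (6.5% of all genes higher), where a call is a Benjamini-Hochberg adjusted p under 0.05 from the quasi-likelihood test of edgeR. ΔIDR1b also raised HSPA4, HSPA4L and HSP90AA1 over the knockout and lowered CHORDC1, HSPE1 and AHSA1, so 6 of the 10 were called against 33.3% of all genes (16.4% higher, 16.8% lower). In the direct comparison of ΔIDR1b with WT, 5 of the 10 genes were lower in ΔIDR1b (CHORDC1, HSPE1, HSPD1, HSP90AB1 and AHSA1), where 24.5% of all genes were called and 13.4% were lower. With EWS-FLI1 in both, CHORDC1, HSPE1, HSPD1 and HSP90AB1 were lower in ΔIDR1b than in WT, 4 of 10 against 18.6% of all genes (10.1% lower). The median log2 difference of the 10 genes was 0.26 for WT against no ARID1A, -0.04 for ΔIDR1b against no ARID1A, -0.27 for ΔIDR1b against WT, and -0.22 for the last with EWS-FLI1, where the medians of all genes lay at -0.008, 0.004, 0.012 and 0.009. The first 3 comparisons share their libraries in pairs, so a deviating library enters more than 1 of them. ARID1A was itself more abundant in every ΔIDR1b library than in any WT library, and the part of that difference in these results was not tested.

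**Figure D2:**
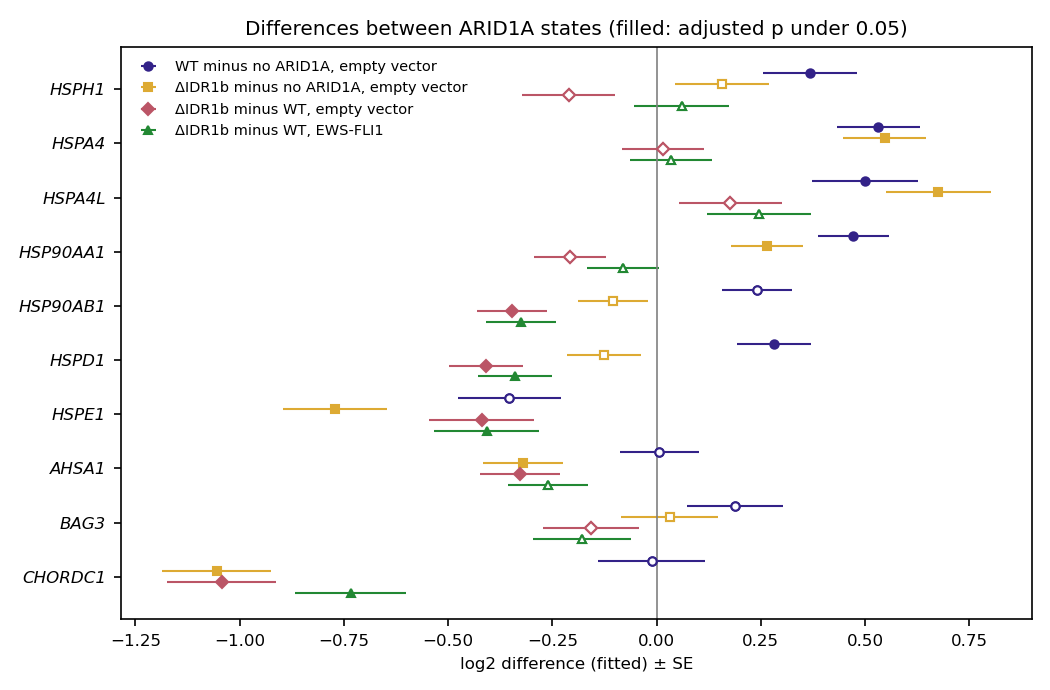
Fitted log2 differences between ARID1A states with their standard errors (horizontal axis) for the 10 chaperone genes, with filled symbols for an adjusted p under 0.05. HSPA4 and HSPA4L lie to the right in both comparisons with the knockout and near or right of 0 between ΔIDR1b and WT, whereas CHORDC1 lies far to the left in all 3 comparisons that involve ΔIDR1b.

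HSP90AA1 (chromosome 14, 102080742 to 102139699, minus strand, GRCh38, as are all positions below) encodes the stress-inducible form of cytosolic HSP90. Without ARID1A, HSP90AA1 stood at 2606 and 2678 CPM with the empty vector and at 2369 and 2352 CPM with EWS-FLI1. In WT, HSP90AA1 reached 3721 and 3607 CPM with the empty vector and 2879 and 2413 CPM with EWS-FLI1. In ΔIDR1b the values were 3097 and 3247 CPM, and 2451 and 2552 CPM with EWS-FLI1. The libraries of WT with the empty vector were the highest, those of ΔIDR1b with the empty vector came second without overlap, and the 2 WT libraries with EWS-FLI1 spanned the knockout's level. The rise over the knockout passed the test in WT (log2 difference 0.47, SE 0.086, adjusted p = 0.00031) and in ΔIDR1b (0.26, SE 0.086, adjusted p = 0.017). The difference between ΔIDR1b and WT did not pass with the empty vector (-0.21, SE 0.086, adjusted p = 0.075) or with EWS-FLI1 (-0.08, SE 0.086, adjusted p = 0.555). The call in WT held in all 19 alternative analyses, with an adjusted p of at most 0.0117, but that in ΔIDR1b was lost when either knockout library was left out (adjusted p = 0.116 without the first and 0.0677 without the second) or the second ΔIDR1b library (0.127). Without the first or the second WT library that carried EWS-FLI1, the difference between ΔIDR1b and WT with the empty vector reached an adjusted p of 0.0146 and 0.0145.

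HSP90AB1 (chromosome 6, 44246166 to 44253888, plus strand) encodes the constitutive form. Its levels without ARID1A were 1749 and 1683 CPM with the empty vector and 1676 and 1599 CPM with EWS-FLI1. WT libraries held 2105 and 1952 CPM of HSP90AB1 with the empty vector and 1955 and 1841 CPM with EWS-FLI1. ΔIDR1b libraries held 1568 and 1623 CPM, and 1491 and 1539 CPM with EWS-FLI1. All 4 WT libraries lay above all other 8, and all ΔIDR1b libraries lay below those of the knockout with the same vector. The fall from WT to ΔIDR1b passed the test with the empty vector (log2 difference -0.35, SE 0.084, adjusted p = 0.00259) and with EWS-FLI1 (-0.33, SE 0.084, adjusted p = 0.00631), 1.27 and 1.25 times lower, although the second did not when the model was fitted to the libraries compared alone (adjusted p = 0.112). The rise from the knockout to WT was 1.18 times and missed the threshold (log2 difference 0.24, SE 0.084, adjusted p = 0.0568). That rise passed under 7 of the 19 alternatives, among them those without the first or second WT library with EWS-FLI1 (adjusted p = 0.0121 and 0.0117) and without the first or second ΔIDR1b library with EWS-FLI1 (0.0415 and 0.0421).

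The HSP110 genes split. HSPA4 (chromosome 5, 133052013 to 133106449, plus strand), also called APG-2, is a constitutive nucleotide exchange factor of HSP70. Its counts without ARID1A came to 241.2 and 216.8 CPM with the empty vector and 203.2 and 213.9 CPM with EWS-FLI1. WT gave 337.9 and 324.4 CPM of HSPA4 with the empty vector, and 357.8 and 303.7 CPM with EWS-FLI1. ΔIDR1b gave 329.1 and 339.9 CPM, and 348.5 and 329.0 CPM with EWS-FLI1. All 8 libraries with either form of ARID1A lay above the 4 without, and the groups with ARID1A overlapped one another. HSPA4 rose 1.45 times in WT (log2 difference 0.53, SE 0.099, adjusted p = 0.000379) and 1.46 times in ΔIDR1b (0.55, SE 0.099, adjusted p = 5.13e-05), and both calls held in all 19 alternatives. Between ΔIDR1b and WT the log2 difference was 0.015 (SE 0.098, adjusted p = 0.936) with the empty vector and 0.03 (SE 0.098, adjusted p = 0.841) with EWS-FLI1.

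HSPA4L (chromosome 4, 127781821 to 127840733, plus strand), the close relative APG-1, followed the same order at a lower level. Libraries without ARID1A held 67.35 and 62.90 CPM of HSPA4L, and 63.25 and 65.59 CPM with EWS-FLI1. In WT, HSPA4L stood at 91.66 and 92.41 CPM, and at 97.48 and 81.49 CPM with EWS-FLI1. In ΔIDR1b it stood at 96.35 and 111.7 CPM, and at 122.5 and 89.74 CPM with EWS-FLI1. Here too the 8 libraries with ARID1A lay above the 4 without, while the repeats of ΔIDR1b with EWS-FLI1 differed by 1.37 times. The rise was 1.41 times in WT (log2 difference 0.5, SE 0.127, adjusted p = 0.00826) and 1.6 times in ΔIDR1b (0.675, SE 0.126, adjusted p = 8.05e-05). The first was lost without the second knockout library (adjusted p = 0.116) or without the first WT library (0.0634), and the second held in all 19 alternatives. ΔIDR1b and WT differed by 0.18 (SE 0.124, adjusted p = 0.32) with the empty vector and by 0.25 (SE 0.124, adjusted p = 0.17) with EWS-FLI1, and the latter passed without the first WT library (0.38, adjusted p = 0.0383) or without the second ΔIDR1b library (0.45, adjusted p = 0.0273).

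HSPH1 (chromosome 13, 31134973 to 31162388, minus strand), the heat-inducible HSP105, did not follow its relatives. It was counted at 169.4 and 194.0 CPM without ARID1A, and at 152.3 and 130.0 CPM with EWS-FLI1. In WT it was at 230.5 and 238.5 CPM, and at 140.8 and 110.4 CPM with EWS-FLI1. In ΔIDR1b it was at 190.3 and 214.8 CPM, and at 136.0 and 125.8 CPM with EWS-FLI1. The 2 WT libraries with the empty vector were the highest of all 12. The 3 groups with EWS-FLI1 lay below the 3 with the empty vector without overlap, and overlapped one another. The rise from the knockout to WT passed the test (log2 difference 0.37, SE 0.113, adjusted p = 0.0292). It did not pass with upper-quartile scaling (adjusted p = 0.0758), without the first or second knockout library (0.285 and 0.0586) or without the first or second WT library (0.112 and 0.125). The difference between ΔIDR1b and the knockout was 0.16 (SE 0.113, adjusted p = 0.303), and between ΔIDR1b and WT it was -0.21 (SE 0.112, adjusted p = 0.175) with the empty vector and 0.06 (SE 0.114, adjusted p = 0.76) with EWS-FLI1.

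The genes of HSP60 and HSP10 stand head to head on chromosome 2, HSPD1 at 197486584 to 197516737 on the minus strand and HSPE1 at 197500140 to 197503449 on the plus strand. HSPD1 libraries held 841.6 and 838.1 CPM without ARID1A, and 806.9 and 787.0 CPM with EWS-FLI1. WT raised HSPD1 to 1018 and 1025 CPM, and it stood at 970.4 and 840.1 CPM with EWS-FLI1. ΔIDR1b held 761.1 and 777.6 CPM of it, and 716.9 and 714.9 CPM with EWS-FLI1. The 4 ΔIDR1b libraries were the lowest and the 2 WT libraries with the empty vector the highest. HSPD1 was 1.33 times lower in ΔIDR1b than in WT with the empty vector (log2 difference -0.41, SE 0.089, adjusted p = 0.000888), a call that held in all 19 alternatives, and 1.26 times lower with EWS-FLI1 (-0.34, SE 0.089, adjusted p = 0.00702). The latter was lost without the first WT library (adjusted p = 0.0693) and with the libraries compared alone (0.115). The rise from the knockout to WT (0.28, SE 0.089, adjusted p = 0.0335) was lost with upper-quartile scaling (0.111), without the first or second knockout library (0.152 and 0.191), without the first or second WT library (0.125 and 0.103), and without the first or second knockout library that carried EWS-FLI1 (0.0515 and 0.0534). ΔIDR1b and the knockout differed by -0.13 (SE 0.089, adjusted p = 0.289).

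HSPE1, which caps the HSP60 chamber, had an order of its own. Its counts without ARID1A were 62.89 and 65.51 CPM, and 57.45 and 56.51 CPM with EWS-FLI1. WT libraries had 52.60 and 47.96 CPM of HSPE1, and 51.26 and 41.54 CPM with EWS-FLI1. ΔIDR1b libraries had 37.72 and 37.46 CPM, and 35.18 and 34.75 CPM with EWS-FLI1. The 4 libraries without ARID1A were the highest and the 4 of ΔIDR1b the lowest, with no overlap among the 3 states. HSPE1 was 1.71 times lower in ΔIDR1b than in the knockout (log2 difference -0.77, SE 0.125, adjusted p = 9.9e-06), and that call held in all 19 alternatives. Against WT it was 1.34 times lower with the empty vector (-0.42, SE 0.125, adjusted p = 0.0131) and 1.33 times lower with EWS-FLI1 (-0.41, SE 0.126, adjusted p = 0.0217). The first of these was lost without the first WT library (adjusted p = 0.135) or without the first or second ΔIDR1b library (0.0796 and 0.0898), and the second without the first WT library (0.239), without the first or second ΔIDR1b library (0.102 and 0.0984) and with the libraries compared alone (0.126). The fall from the knockout to WT, -0.35 (SE 0.123), missed the threshold (adjusted p = 0.0563) and passed under 7 of the 19 alternatives, among them upper-quartile scaling (0.0229) and those without the first or second WT library with EWS-FLI1 (0.0189 and 0.0187). HSPE1 counts carry 2 limits of the counting. First, 17.94% of its exon bases are shared with HSPD1 or the readthrough gene HSPE1-MOB4, where fragments were not assigned. Second, the annotation holds 26 pseudogene names of HSPE1, whose own counts came to 4.25% of the gene's. Fragments that map to both the gene and a copy were not counted, so this share does not measure what HSPE1 lost. Its level may therefore be too low.

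CHORDC1 (chromosome 11, 90200429 to 90223077, minus strand) encodes a zinc-binding HSP90 co-chaperone, and showed the largest differences of the 10 genes between ΔIDR1b and WT. Without ARID1A, CHORDC1 stood at 179.4 and 210.4 CPM, and at 186.9 and 152.4 CPM with EWS-FLI1. In WT, CHORDC1 was at 182.8 and 203.9 CPM, and at 147.6 and 101.0 CPM with EWS-FLI1. In ΔIDR1b it was at 87.36 and 100.3 CPM, and at 76.59 and 72.92 CPM with EWS-FLI1. The 4 ΔIDR1b libraries were the 4 lowest, and the knockout and WT overlapped with the empty vector. ΔIDR1b was 2.08 times below the knockout (log2 difference -1.055, SE 0.131, adjusted p = 1.21e-07) and 2.06 times below WT (-1.04, SE 0.131, adjusted p = 5.45e-07). With EWS-FLI1 in both, it was 1.66 times below WT (-0.73, SE 0.133, adjusted p = 0.00018). These 3 calls held in all 19 alternatives, and the last ranged from -0.98 to -0.44 in size, since the 2 WT libraries with EWS-FLI1 differed by 1.46 times. The log2 difference of WT from the knockout was -0.01 (SE 0.129, adjusted p = 0.966).

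AHSA1 (chromosome 14, 77457870 to 77469472, plus strand), which stimulates the ATPase of HSP90, showed the same direction on a smaller scale. Libraries without ARID1A held 192.6 and 188.9 CPM of AHSA1, and 182.6 and 177.5 CPM with EWS-FLI1. WT libraries of AHSA1 were at 196.8 and 186.5 CPM, and at 188.1 and 183.4 CPM with EWS-FLI1. The ΔIDR1b libraries were at 155.9 and 149.6 CPM, and at 153.4 and 156.8 CPM with EWS-FLI1. All 4 ΔIDR1b libraries lay below the other 8, which ran from 177.5 to 196.8 CPM. AHSA1 was 1.25 times lower in ΔIDR1b than in the knockout (log2 difference -0.32, SE 0.096, adjusted p = 0.00931) and than in WT (-0.33, SE 0.096, adjusted p = 0.0113). The first call was lost without the first or second knockout library (adjusted p = 0.0779 and 0.0535) or the second ΔIDR1b library (0.102), and the second without the first WT library (0.101) or the first or second ΔIDR1b library (0.0547 and 0.116). With EWS-FLI1 the difference from WT was -0.26 (SE 0.096, adjusted p = 0.0532), which passed in 4 of the 19 alternatives, 1 of them without the second WT library (0.0412). WT differed from the knockout by 0.006 (SE 0.095, adjusted p = 0.974).

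BAG3 (chromosome 10, 119651380 to 119677819, plus strand), which links HSP70 to autophagy, did not pass the tests between ARID1A states. It was measured at 71.89 and 64.84 CPM without ARID1A, and at 69.30 and 64.98 CPM with EWS-FLI1. In WT, BAG3 stood at 82.95 and 72.91 CPM, and at 58.64 and 61.93 CPM with EWS-FLI1. In ΔIDR1b, BAG3 was at 66.16 and 73.56 CPM, and at 51.60 and 54.91 CPM with EWS-FLI1. With the empty vector the WT libraries overlapped those of ΔIDR1b, and with EWS-FLI1 the order was knockout, WT, ΔIDR1b without overlap. The tested log2 differences were 0.19 for WT against the knockout (SE 0.115, adjusted p = 0.315), 0.03 for ΔIDR1b against the knockout (SE 0.116, adjusted p = 0.866), -0.16 for ΔIDR1b against WT (SE 0.115, adjusted p = 0.34) and -0.18 for the last with EWS-FLI1 (SE 0.117, adjusted p = 0.305).

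EWS-FLI1 was next set against the empty vector within each ARID1A state, as a description. In WT the lower levels with EWS-FLI1 were most marked for HSPH1 (1.87 times), CHORDC1 (1.55 times), HSP90AA1 (1.38 times) and BAG3 (1.29 times), whereas HSP90AB1 (1.07 times), AHSA1 (1.03 times), HSPA4L (1.03 times) and HSPA4 (1.00 times) stood near their level with the empty vector. In ΔIDR1b the order began with HSPH1 at 1.55 times lower, followed by BAG3 (1.31 times), HSP90AA1 (1.27 times) and CHORDC1 (1.26 times). Without ARID1A, HSPH1 was 1.29 times, CHORDC1 1.15 times, HSPE1 1.13 times and HSP90AA1 1.12 times lower, and BAG3 was 1.02 times lower with overlapping libraries. The log2 difference was below 0 for 10 of the 10 genes without ARID1A and for 10 in WT, against 50.6 and 50.7% of all genes, and for 7 in ΔIDR1b, against 49.3%. With single libraries left out these counts ran from 8 to 10, from 7 to 10 and from 7 to 9. The 2 libraries with EWS-FLI1 lay below both with the empty vector for 7 of the genes without ARID1A, 5 in WT and 7 in ΔIDR1b, where that held for 18.6, 13.8 and 18% of all genes. Nothing is read from these counts, since lower levels of heat-shock genes with EWS-FLI1 were known when the genes were chosen.

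The 2 WT libraries with EWS-FLI1 differed from each other more than other repeats did, at a chi-square of 12.1 per degree of freedom over all genes against 3.02 for the closest pair, and 9 of the 10 chaperone genes were lower in the second of them, BAG3 being the other. The log2 difference of HSPH1 in WT was -0.9 with both libraries, -1.09 without the first and -0.74 without the second. For CHORDC1 it was -0.64, -0.94 and -0.39, for HSP90AA1 -0.47, -0.6 and -0.35, and for BAG3 -0.37, -0.33 and -0.41. These 4 genes thus stayed lower with either library left out. Without the second, HSPA4 (0.11), HSPA4L (0.08) and HSPE1 (0.03) lay above 0, and the other genes stayed below it. FLI1 was more abundant in WT than in the other states, as given above, and its part in the larger differences there was not tested.

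**Figure D3:**
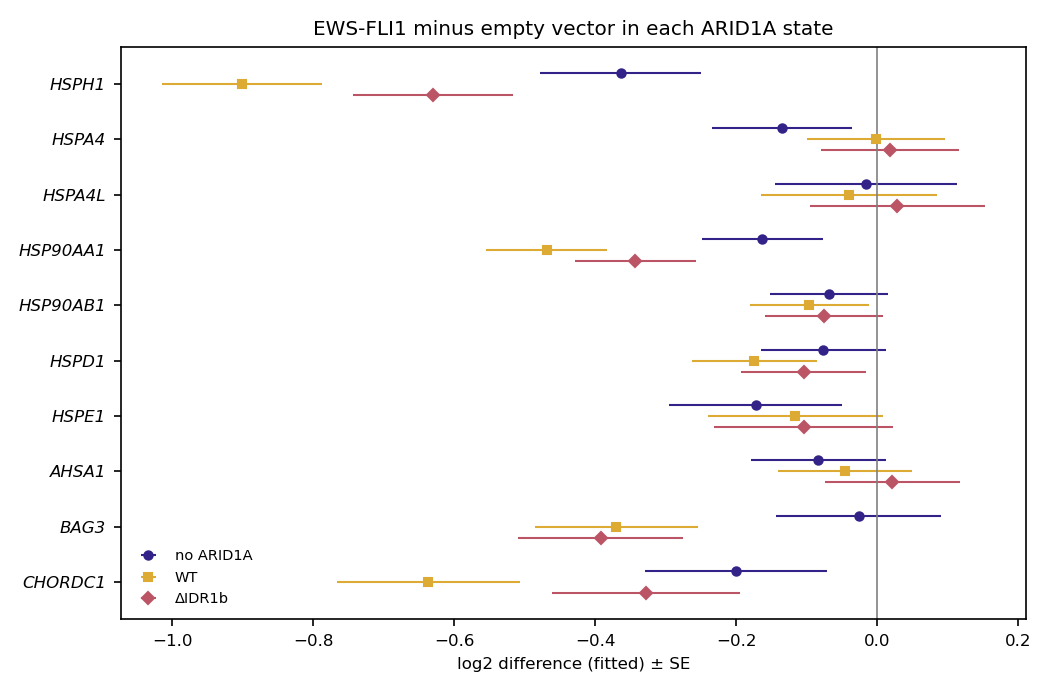
Fitted log2 difference of EWS-FLI1 from the empty vector (horizontal axis, with standard errors) for each of the 10 chaperone genes in the 3 ARID1A states, shown as a description without a test. HSPH1, HSP90AA1, BAG3 and CHORDC1 extend furthest to the left in WT or ΔIDR1b, at -0.9, -0.47, -0.39 and -0.64, and the other 6 genes stay between -0.17 and 0.03.

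The difference with EWS-FLI1 in WT minus that in the knockout was -0.54 for HSPH1, -0.44 for CHORDC1, -0.34 for BAG3 and -0.31 for HSP90AA1 on the log2 scale, and it was below 0 for 7 of the 10 genes (50.2% of all genes). For ΔIDR1b minus the knockout it was -0.37 for BAG3, -0.27 for HSPH1, -0.18 for HSP90AA1 and -0.13 for CHORDC1, and below 0 for 6 of the 10 (49.1% of all genes). For ΔIDR1b minus WT it was 0.31 for CHORDC1, 0.27 for HSPH1, 0.13 for HSP90AA1 and -0.02 for BAG3, and below 0 for 1 of the 10 (50% of all genes), a count that moved between 0 and 5 when single libraries were left out. Among the libraries with EWS-FLI1, WT stood above the knockout for HSPA4 (log2 difference 0.67) and HSPA4L (0.47) and below it for CHORDC1 (-0.45) and HSPE1 (-0.3). ΔIDR1b stood above the knockout for HSPA4L (0.72) and HSPA4 (0.7) and below it for CHORDC1 (-1.18), HSPE1 (-0.7) and BAG3 (-0.33).

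For the 3 chaperone genes with the widest range, the genes with the most similar course over the 12 libraries were sought. The search covered 12280 genes with a mean of at least 5 CPM and left out all the chaperone genes followed here. Likeness was measured by the root-mean-square difference of log2 CPM after each gene was centred on its own mean. CHORDC1, whose own deviation was 0.547, was matched most closely by TTC14 (0.137), GALT (0.15), PSMC6 (0.177), ENSG00000226530 (0.179) and CHIC1 (0.185). GALT is an enzyme of galactose use and PSMC6 an ATPase subunit of the proteasome. HSPE1, with a deviation of 0.317, was matched by ATP1B1 and HMGN2 (0.085 each), TTC28-AS1 (0.088), LINC01278 (0.089) and RPS7 (0.09). HSPH1, with a deviation of 0.355, had its nearest match in the small heat-shock protein gene HSPB1 (0.198), followed by CA2 (0.223), BMS1P2 (0.225), MINDY3 (0.238) and GPATCH2 (0.243). Among the genes searched, the nearest match of HSPH1 was thus the most distant of the 3. HSP90AA1, which was left out of the search, had a Pearson correlation with HSPH1 of 0.856 over the 12 libraries, against 0.854 for HSPB1.

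The other genes of the chaperone system were counted in the same 4 tests, and the share of all genes called in that direction is given beside each count. Of 18 other HSP90 co-chaperones, 4 were called higher and 1 lower in WT than in the knockout (6.5 and 5.19% of all genes). STIP1, the adaptor between HSP70 and HSP90, rose 1.48 times (284.7 to 421.9 CPM, log2 difference 0.57, SE 0.095, adjusted p = 0.000105). TOMM34 rose 1.49 and PPID 1.5 times, and 56.72% of the exon bases of PPID are shared with ETFDH, where fragments were not assigned. In ΔIDR1b 2 of the 18 were higher and 6 lower than in the knockout (16.4 and 16.8% of all genes). Among the latter were the p23 gene PTGES3 (1.41 times lower), CACYBP (1.49 times) and AHSA2P (1.57 times). AHSA2P is a paralogue of AHSA1 that is named as a pseudogene, and 35.92% of its exon bases are shared with USP34. Against WT, 7 of the 18 were lower in ΔIDR1b with the empty vector (13.4% of all genes), 4 with upper-quartile scaling. With EWS-FLI1, 2 were lower (PTGES3 and FKBP4, 10.1% of all genes), 1 with upper-quartile scaling, 3 in DESeq2, and 0 when edgeR was fitted to the libraries compared alone, where 2 of the 18 differed either way at an unadjusted p under 0.05.

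Of 7 HSP70 genes tested from a list of 8, 3 were higher in WT than in the knockout (6.5% of all genes), 1 with upper-quartile scaling and 1 in DESeq2, and HSPA6 rose 1.97 times from 11.75 to 23.19 CPM. The count of HSPA1B, the inducible HSP70 gene, is uncertain because its near-identical copy HSPA1A shares its reads. The constitutive HSP70 gene HSPA8, which HSP110 proteins serve, was 1.3 times lower in ΔIDR1b than in WT with the empty vector (adjusted p = 0.0203) and 1.36 times lower with EWS-FLI1 (adjusted p = 0.00981). DESeq2 made neither call, the first was lost with upper-quartile scaling and the second with the libraries compared alone. HSPA13 went the other way, 1.42 times higher in ΔIDR1b with the empty vector (adjusted p = 0.000498) and 1.28 times higher with EWS-FLI1 (adjusted p = 0.0157), the latter lost with the libraries compared alone. Of 8 J-domain genes, which deliver clients to HSP70, 3 were higher in WT than in the knockout (6.5% of all genes) and 5 were lower in ΔIDR1b than in WT (13.4% of all genes), led by DNAJB1 at 1.6 times (316.8 against 198.2 CPM). With EWS-FLI1, 3 were lower (10.1% of all genes), and 1 with the libraries compared alone. DNAJB5, in contrast, was higher than in the knockout both in WT (2.64 times) and in ΔIDR1b (3.29 times). HSPB8, a small heat-shock protein that forms a complex with BAG3, was 2.56 and 2.91 times higher in the same comparisons (14.43, 36.94 and 41.93 CPM, adjusted p = 1.4e-07 and 1.15e-09). It was 1 of 2 among the 5 small heat-shock genes tested of 9 that were higher in WT (6.5% of all genes, 1 gene with upper-quartile scaling), while BAG3 itself passed neither test.

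Of 8 other BAG and HSP70 exchange factors, 4 were lower and 1 higher in ΔIDR1b than in the knockout (16.8 and 16.4% of all genes). Against WT 4 were lower and 1 higher with the empty vector (13.4 and 11.1% of all genes) and 3 were lower with EWS-FLI1 (10.1%), the last falling to 2 with upper-quartile scaling and 1 with the libraries compared alone. BAG1 was 2.14 times below the knockout (32.02 against 68.52 CPM, adjusted p = 2.77e-08), and BAG5 was the 1 that was higher, at 1.57 times. The 14 genes of the cytosolic chaperonin CCT and its prefoldin partner counted 4 higher in WT than in the knockout (6.5% of all genes). CCT7 led them at 1.33 times, and the count was 3 with upper-quartile scaling and 7 with the libraries compared alone. In ΔIDR1b 11 were lower than in WT (13.4% of all genes, 8 of the 14 with upper-quartile scaling), led by PFDN4 at 2.11 times. With EWS-FLI1, 3 were lower (10.1% of all genes), 1 with upper-quartile scaling, 4 in DESeq2, and 0 when edgeR was fitted to the libraries compared alone, where 2 of the 14 differed either way at an unadjusted p under 0.05. Of 12 mitochondrial chaperones and proteases other than HSPD1 and HSPE1, 2 were lower in ΔIDR1b than in WT, CLPP (1.34 times) and CLPX (1.33 times), a count near the 13.4% of all genes. CLPP was lower with EWS-FLI1 too (10.1% of all genes), though not with upper-quartile scaling, in DESeq2 or with the libraries compared alone. Of 6 genes for heat-shock factors and their binders, 4 were lower and 1 higher in ΔIDR1b than in the knockout (16.8 and 16.4% of all genes), HSF2 at 1.79 times lower and the coactivator gene EP300 at 2.08 times higher. HSF1, named after its values were seen, was at 219.9 CPM in the knockout and 177.3 CPM in ΔIDR1b (log2 difference -0.31, adjusted p = 0.0434). In that comparison DESeq2 called 3 of the 6 lower, where the main fit called 4. Of 10 further genes listed as induced by HSF1, 4 were lower and 1 higher in ΔIDR1b than in the knockout (16.8 and 16.4% of all genes), among the former GADD45B at 1.83 times (15.96 against 29.23 CPM). Against WT 4 of them were lower and 1 higher with the empty vector (13.4 and 11.1% of all genes), and DESeq2 called 2 lower.

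**Figure D4:**
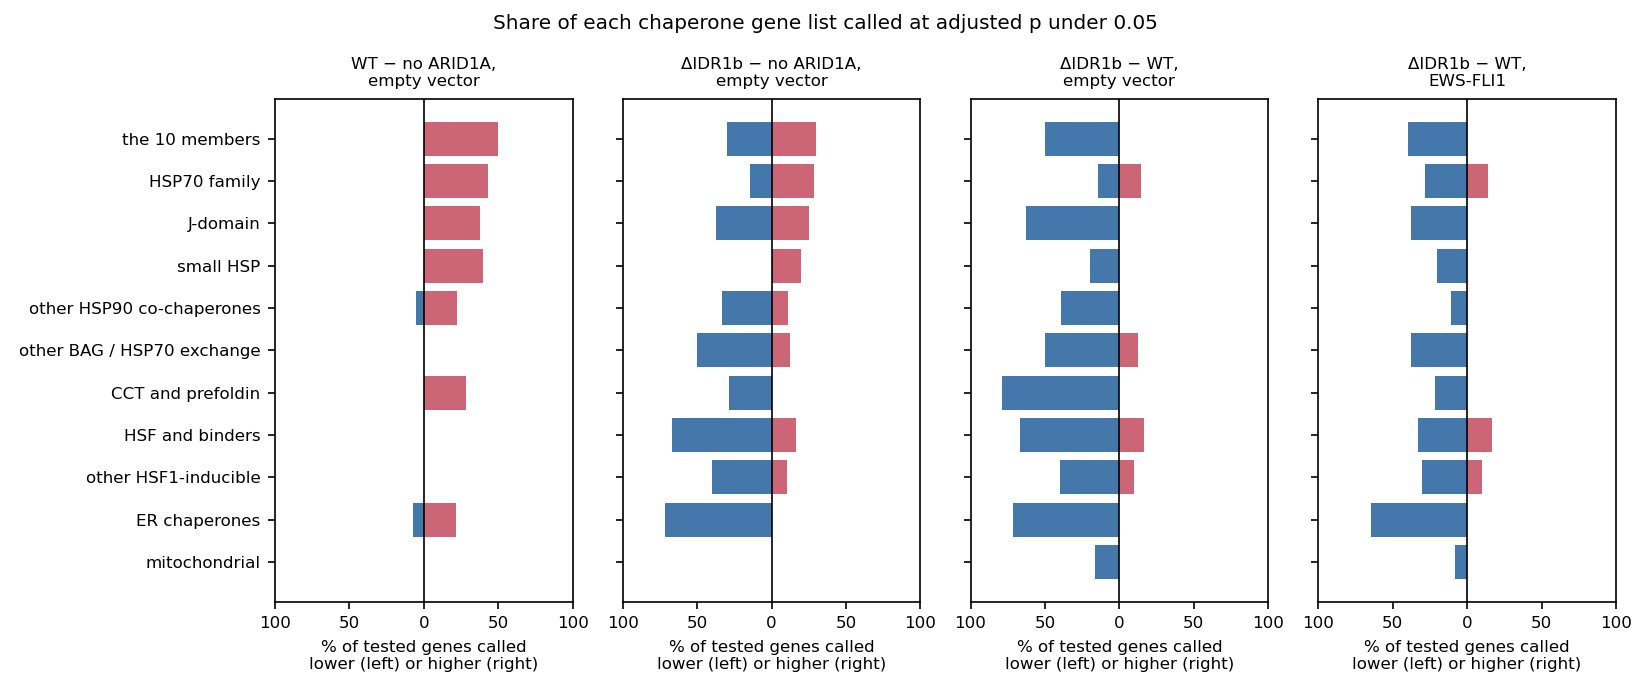
Percent of the tested genes of each chaperone list (rows) called lower (blue, to the left) or higher (red, to the right) at an adjusted p under 0.05 in the 4 tested comparisons (panels). In the comparison of ΔIDR1b with WT with the empty vector the blue bars prevail in nearly every list, and the 10 chaperone genes have 5 lower there, against 13.4% of all genes.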

How the data were processed

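Gene-level counts of polyA RNA libraries were used for 6 groups of 2 HEK-293T libraries. Per the file headers, the authors counted fragments per gene name with featureCounts 2.0.1 over the exons of GENCODE release 41 (GRCh38, patch 13), with both ends aligned, no strand option, and neither multi-mapping fragments nor those over several genes counted, so antisense and overlapping genes can lose or gain reads. The deposited counts are not normalized. The exon length deposited beside them is in bases, summed over isoforms. STAR, SAMtools, featureCounts and edgeR are named in the submitters' processing notes. The aligner's version is not given in the sources used here.

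Genes were kept by filterByExpr (minimum count 10, minimum total 15), which left 20377. With TMM scaling, all 12 libraries entered a quasi-likelihood model that gave each group its own mean (edgeR 4.0.16, limma 3.58.1, R 4.3.3), at a common biological variation of 10.1%. The 4 tested comparisons were 2-sided and adjusted over all genes by Benjamini-Hochberg within each, and 8 further comparisons were described only. The SE of a log2 difference was taken from its size and the F statistic. The procedure was tested on simulated counts. Alternatives were other scalings, no filter, DESeq2 1.42.0, the compared libraries alone, replicate blocks, and each of 12 libraries left out. Chi-square values between repeats showed that every pair differed beyond sampling noise.

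The genes, the lists and the rule for named genes were chosen with earlier results of these data known. The rule named the 10 genes and the introduced genes. It also named, for the 3 genes of widest range, the 5 nearest courses outside the 10 genes. Per list it named up to 4 called genes with the largest difference in a tested comparison. Lists were written from general knowledge. Promoter sequences are from RefSeq (GRCh38.p14). Some genes of the lists are not reported here.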

Additional observations from a re-analysis of the deposited data

How the results depend on the processing

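Over 19 alternatives, the 12 counts of chaperone genes kept within 1.5 times of their main value except as follows. The count below 0 in the effect of EWS-FLI1 in ΔIDR1b minus WT (1 of 10) was 2 with size factors by RLE, 4 with upper-quartile scaling, 2 with DESeq2, 2 without the filter, and 0 to 5 with single libraries left out. The genes called between ΔIDR1b and WT with EWS-FLI1 (4) fell to 1, CHORDC1, with the libraries compared alone, and ran from 3 to 5 with single libraries left out. For WT against no ARID1A the 5 calls ran from 2 to 7 (3 and 2 without the first and second knockout library, 2 and 3 without the first and second WT library), for ΔIDR1b against WT the 5 ran from 3 to 6 (3 without the first WT library or either ΔIDR1b library), and for ΔIDR1b against no ARID1A the 6 ran from 4 to 6. The count below 0 for WT minus no ARID1A (7) ran from 4 to 8, with 4 without the second WT library that carried EWS-FLI1. Where 1 library of a group remained, it was assumed to vary like the other groups. Over all genes, the calls ran from 802 to 3606 around 2381 for WT against no ARID1A, from 4484 to 8063 around 6778 for ΔIDR1b against no ARID1A, from 2754 to 6138 around 4995 for ΔIDR1b against WT, and from 1622 to 5049 around 3785 with EWS-FLI1.

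Values that changed sign in the tested comparisons were all uncalled. For AHSA1 in WT against no ARID1A the log2 difference was -0.005 with RLE, -0.059 with upper-quartile scaling and -0.005 with DESeq2, and it ran from -0.03 to 0.056 with single libraries left out. With single libraries left out, CHORDC1 in the same comparison ran from -0.12 to 0.11 and BAG3 in ΔIDR1b against no ARID1A from -0.047 to 0.107. Between ΔIDR1b and WT, HSPA4 ran from -0.013 to 0.041 with the empty vector and from -0.082 to 0.154 with EWS-FLI1, where HSP90AA1 ran from -0.206 to 0.049 and HSPH1 from -0.108 to 0.243. The causes were not tested.

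The repeat numbers were not taken to pair the libraries. Over 12290 genes, the difference between repeats correlated at 0.081 to 0.136 in the 3 pairs of groups with the empty vector, 0.1 to 0.343 in the 3 with EWS-FLI1, and -0.166 to -0.006 in the 9 pairs with different vectors. With a replicate block over all libraries the 4 tested counts were 5, 6, 5 and 4, as without it. With a replicate block within each vector they were 7, 6, 6 and 5, where HSP90AB1 (adjusted p = 0.0181) and HSPE1 (0.0177) were added in WT against no ARID1A, HSP90AA1 (0.0277) in ΔIDR1b against WT, and AHSA1 (0.0197) in the same with EWS-FLI1. The other HSP90 co-chaperones called lower between ΔIDR1b and WT then went from 7 to 12 with the empty vector and from 2 to 8 with EWS-FLI1, and the CCT and prefoldin genes called higher in WT from 4 to 9.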

Other observations

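The endoplasmic reticulum has its own HSP70, HSP90 and J-domain proteins, whose genes respond to unfolded protein there and not to HSF1. Of 14 such genes, 3 were higher and 1 lower in WT than in the knockout with the empty vector (6.5 and 5.19% of all genes), and 10 were lower in ΔIDR1b than in the knockout (16.8% of all genes). The HSP70 of that compartment, HSPA5 (BiP), stood at 2147 CPM in the knockout, 2967 in WT and 672 in ΔIDR1b, so that ΔIDR1b was 3.19 times below the knockout (log2 difference -1.68, SE 0.096, adjusted p = 2.52e-15 in the edgeR test) and 4.42 times below WT (-2.14, SE 0.097, adjusted p = 3.9e-17). Its HSP90, HSP90B1 (GRP94), was at 1262 CPM in the knockout and 670.2 in ΔIDR1b, a 1.88 times lower level (adjusted p = 4.17e-09). These differences exceeded those of HSP90AA1, HSP90AB1 and HSPA8 in the cytosol in size, which was not tested as a contrast between genes. Against WT, 10 of the 14 were lower in ΔIDR1b with the empty vector (13.4% of all genes), HERPUD1 at 2.27 times and DNAJB9 at 2.07 times, and 9 with EWS-FLI1 (10.1% of all genes), where HSPA5 stood at 629.3 against 2362 CPM (adjusted p = 1.13e-15). The last count was 7 with upper-quartile scaling and 4 with the libraries compared alone.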
